A study of Mus musculus with 18 samples.

Results

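The proteasome genes described here are the 45 genes, of 24411 gene symbols in the expression table, whose symbols begin with Psma, Psmb, Psmc, Psmd, Psme, Psmf or Psmg followed by a number, with the 3 interferon-induced active-site genes Psmb8, Psmb9 and Psmb10 left out. They comprise 16 genes of the 20S core particle (Psma and Psmb), 20 of the 19S cap (Psmc and Psmd), 4 activators (Psme), the inhibitor Psmf1 and the 4 core chaperones Psmg1 to Psmg4. Of these, 44 passed the filter of at least 1 TPM in at least 3 libraries, where TPM is the length-scaled share of a gene among all transcripts, with a fixed total per library. Psmb11, the thymus form of a core active-site subunit, did not pass and lay between 0 and 0.15 TPM.

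The cells were RAW264.7, an established mouse macrophage line, carrying either a control guide RNA or a Cas9-made deficiency of Kdm7a, a histone demethylase gene. Both were kept for 48 h without stimulation (M0), with 2 ng/ml mouse interferon gamma and 0.1 µg/ml lipopolysaccharide (M1), or with interleukins 4, 10 and 13, for which the labels state 20 ng/ml, and 2 ng/ml human TGF-beta 1 (M2). Each of the 6 groups had 3 libraries of poly(A) RNA, so every mean ± SD has n = 3. There was 1 knockout line and 1 control line, so differences between lines and effects of the deficiency cannot be told apart, and nothing in the labels ties the 3 libraries of a group to separate cultures, so each p-value speaks of library-to-library spread, which may be technical.

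The proteasome is the cell's main protease for proteins tagged with ubiquitin. Its barrel-shaped 20S core has outer rings of alpha subunits that gate the entrance and inner rings of beta subunits, of which Psmb5, Psmb6 and Psmb7 carry the active sites; the 19S cap recognises the tagged protein, removes the ubiquitin and unfolds and threads the chain with a ring of Psmc ATPases. The Psme activators open the core without a cap, and in cells exposed to interferon gamma the PA28 pair Psme1 and Psme2 and the immunoproteasome active sites are known to be induced together, which changes the peptides offered on MHC class I.

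Kdm7a was checked first. It stood at 11.1 ± 0.17 TPM in M0, 29.7 ± 0.84 TPM in M1 and 23.3 ± 1.1 TPM in M2 control cells, and at 3.37 ± 0.14 TPM, 7.49 ± 0.26 TPM and 6.80 ± 0.88 TPM in the knockout line, so it was lower in the knockout line in each condition. All 8 macrophage markers were present, with no group mean below 27.8 TPM, and 9 of 10 markers of other cell types had group means of 0 to 0.463 TPM; the exception was Pecam1, used as an endothelial marker, at 0.143 ± 0.012 TPM in M0 and 20.9 ± 0.78 TPM in M1 control cells, and its part in the results was not tested. TPM keeps no sequencing depth. Across all 11548 tested genes the median log2 fold change under M1 was -0.38 in the control line and -0.43 in the knockout line, and 0.07 and 0.06 with trimmed-mean (TMM) factors, so M1 changes are given beside these shifts. In bulk RNA, a change in the number of cells of a state and a change in RNA per cell cannot be told apart.

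Promoter sequence was examined for elements linked to the stimuli or to proteasome gene control. RefSeq windows of the GRCm38.p6 build, 250 bases before to 50 after each annotated start, were found for 37 of the 45 genes. A gene counted as matched when any of its windows held a match, while the background share counts single windows, so the units differ. The core of the interferon-stimulated response element, searched on either strand as GAAA, any 2 bases and GAAA again, was present in 5 of the 37 genes (13.5%) and in 3.44% of all 32851 windows. Those 5 genes are shown because their transcripts moved in different directions under M1. Capitals mark the match, which reads TTTC, 2 bases and TTTC where it lies on the other strand, and positions count from the first transcribed base as +1.
Psme1 (chr14:55578493-55578522, plus strand, match at +10 to +19): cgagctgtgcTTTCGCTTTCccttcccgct
Psmg4 (chr13:34162969-34162998, plus strand, match at +16 to +25): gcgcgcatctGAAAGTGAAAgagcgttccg
Psmb3 (chr11:97703261-97703290, plus strand, match at -163 to -154): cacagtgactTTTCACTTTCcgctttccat
Psmd9 (chr5:123228021-123228050, plus strand, match at -159 to -150): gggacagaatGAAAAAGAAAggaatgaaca
Psmd4 (chr3:95042675-95042704, minus strand, match at -80 to -71): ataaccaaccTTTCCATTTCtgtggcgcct

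Among these 5, Psme1 had the highest M1 change of all members in the control line, Psmg4 and Psmb3 fell, and Psmd9 and Psmd4 fell as well, the last with a log2 change of -0.10 that had the opposite sign under TMM factors (0.43). The windows of Psme2, whose M1 change was close in size to that of Psme1, held no such match.

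The antioxidant response element, which NRF1 and NRF2 bind and through which NRF1 raises proteasome genes when the protease is inhibited, was searched as TGACNNNGC or TGAGNNNGC on both strands. It was present in 16 of 37 genes (43.2%), in 7 of 12 core genes (58.3%), in 7 of 17 cap genes (41.2%) and in 27.8% of all windows. The stretches of 2 active-site genes are shown because these genes moved in opposite directions under M1 on the TPM scale. With TMM factors, in the control line, Psmb5 had a log2 change of 0.06 that was not called, and Psmb6 rose by 1.29.
Psmb5 (chr14:54618024-54618052, minus strand, match at -47 to -39): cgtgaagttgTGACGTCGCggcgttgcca
Psmb6 (chr11:70525338-70525366, plus strand, match at -9 to -1): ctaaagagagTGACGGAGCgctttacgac
Over all members with a window, the median M1 log2 change in the control line was -0.03 for the 16 tested genes with a match and 0.02 for the 20 without. For knockout against control in M1 these medians were -0.20 and -0.10. For M2 in the knockout line they lay the other way, at 0.04 and -0.01. Differences between genes with and without a match were not tested. CCAAT, the box bound by NF-Y, was present in 13 of 37 genes (35.1%) and in 37.4% of windows. By class it was present in 7 of 12 core genes (58.3%), the same share as the antioxidant element, and in 5 of 17 cap genes (29.4%). No matches of 2 different motifs overlapped within a member's window. A match describes letters only.

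In unstimulated control cells the core genes other than Psma8 and Psmb11 lay within a narrow band of levels. Their group means ran from 245 TPM for Psma3 to 543 TPM for Psmb4, a ratio of 2.22, and together the 16 genes made up 0.545% of all TPM. The cap genes ran from 30.1 TPM for Psmd9 to 317 TPM for Psmd4. The 3 genes at the bottom of the cap order were Psmd9, Psmd10 and Psmd5, which encode chaperones that help assemble the cap and are not part of it, at 30.1 ± 1.5 TPM, 54.5 ± 2.7 TPM and 68.1 ± 2.4 TPM. With these 3 left out, the median cap gene of a library was 0.545 ± 0.016 times the median core gene (Psma8 and Psmb11 left out).

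Psme2 and Psme1, which form the PA28 ring, stood at 239 ± 3.9 TPM and 181 ± 6.3 TPM, Psme3, the nuclear form of PA28, at 164 ± 1.1 TPM, and Psme4, which encodes the large activator PA200, at 42.7 ± 0.9 TPM. Psmf1, which encodes the inhibitor PI31, had 21.9 ± 1.7 TPM. The 4 core chaperones, which guide the assembly of the alpha ring, lay between 68.6 and 94.2 TPM. Psma8, the testis form of Psma7, had 28.3 ± 2.0 TPM, against 424 ± 4.5 TPM of Psma7. Levels are uncertain for the 11 members that share over 20% of their 31-base stretches with other annotated genes, among them Psmb3 (66.8%), Psma5 (64%), Psmd2 (45.3%), Psmc1 (39.7%), Psma4 (38.9%), Psma3 (27.1%), Psmg3 (24.4%) and Psme1 (22.1%), and 21 members share none. Exons of Psmb5, Psmb7 and Psmd13 overlap those of Mir686, Nek6 and Sirt3 over 12.1%, 11.8% and 10.1% of their bases.

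**Figure D1:**
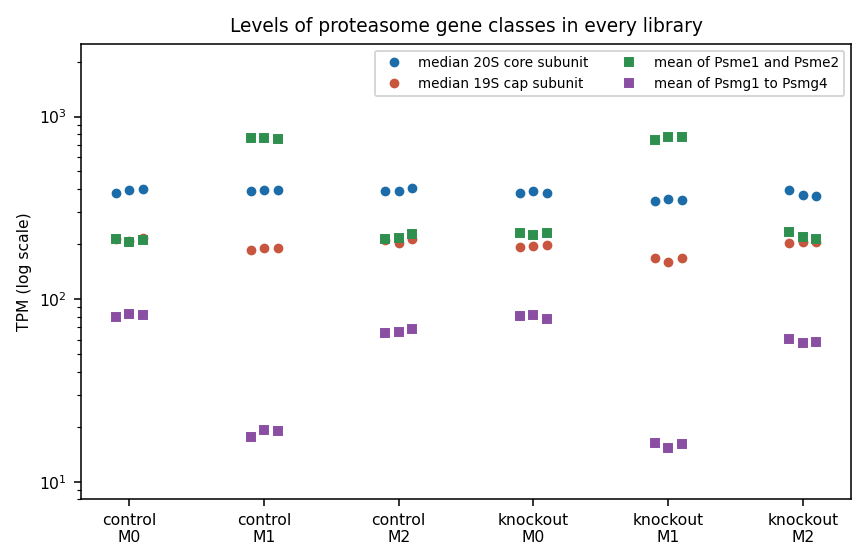
Level of each proteasome gene class in every library (TPM, log scale; 3 points per group). Blue and red circles are the median 20S core gene (without Psma8 and Psmb11) and the median 19S cap gene (without the 3 cap chaperones); green and purple squares are the means of Psme1 and Psme2 and of Psmg1 to Psmg4. The PA28 pair lay above the median core gene in M1 libraries only, and the core chaperones were lowest in M1.

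On the TPM scale, with its fixed total, M1 stimulation of control cells left the summed core near its unstimulated value. Single genes moved in both directions. The level of the core depended on the scaling, and with TMM factors its median log2 change was 0.55. The core summed to 5454 ± 69 TPM without stimulation and 5412 ± 37 TPM under M1, and the cap to 3837 ± 53 TPM and 4215 ± 19.6 TPM. The activators summed to 626 ± 5.5 TPM and 1648 ± 18 TPM, and the core chaperones to 326 ± 5.6 TPM and 74.2 ± 3.2 TPM. Of the 44 genes tested, 17 rose, 20 fell and 7 were not called, where a call is a limma adjusted p below 0.05 over all 11548 genes; 32.2% of all genes tested were called higher and 56.9% lower. The median change of the 44 was 0.00 on the log2 scale, against -0.38 for all genes. With TMM factors 32 rose and 10 fell, beside 5454 of all 11548 genes called higher and 4875 lower. With median-ratio factors 30 rose and 10 fell, beside 5213 and 5102 of all genes. Under all 3 scalings 17 members were called higher and 10 lower. No matching count over all 11548 genes is given for this or for later counts under all 3 scalings. Those counts therefore do not set the members apart from other genes.

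The activators held the largest rises and a fall. Psme1 had 189, 177 and 179 TPM in the 3 M0 libraries and 687, 699.7 and 680.4 TPM in the 3 M1 libraries of the control line (log2 fold change 1.92 ± 0.03 SE, limma adjusted p = 2.63e-21). Psme2 had 236, 237 and 243 TPM and 846, 831 and 819.5 TPM (log2 fold change 1.80 ± 0.04 SE, limma adjusted p = 8.63e-20). Every M1 library lay far above every M0 library for both genes. Psme2 shares 66.2% of its 31-base stretches with Psme2b, a near copy that rose from 13.2 ± 0.87 TPM to 68.6 ± 5.1 TPM, so reads of the 2 could be split between them. Psme4 had 41.7, 42.9 and 43.5 TPM and 64.6, 64.1 and 62.0 TPM (log2 fold change 0.56 ± 0.05 SE, limma adjusted p = 3.43e-10), a smaller rise without overlap. Psme3 went the other way, with 164, 164 and 162 TPM and 60.2, 65.3 and 65.6 TPM (log2 fold change -1.35 ± 0.04 SE, limma adjusted p = 1.8e-18). The ratio of Psme3 to Psme1 was 0.902 ± 0.027 in M0 and 0.0924 ± 0.0045 in M1.

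Of the 15 core genes tested, 6 rose and 6 fell, and their median change was 0.01 on the log2 scale. With TMM factors 11 rose and 2 fell, with a median of 0.55 against 0.07 over all genes. With median-ratio factors 11 rose and 2 fell. The 3 active-site genes parted. Psmb6, of the caspase-like site, had 316, 317 and 295 TPM in M0 and 517, 525 and 519 TPM in M1 (log2 fold change 0.75 ± 0.04 SE, limma adjusted p = 2.42e-13), the largest rise in the core. Psmb5, of the chymotrypsin-like site, had 304, 313 and 294 TPM and 216, 218 and 217 TPM (log2 fold change -0.48 ± 0.04 SE, limma adjusted p = 8.62e-10), without overlap, but with TMM factors its change was 0.06 and not called. Psmb7, of the trypsin-like site, had 413, 438 and 433 TPM and 437, 432 and 428 TPM, groups that overlapped (log2 fold change 0.01 ± 0.03 SE, limma adjusted p = 0.711), but with TMM factors it was called higher (log2 0.55, limma adjusted p = 6.38e-10). Psmb5 shares 74% of its 31-base stretches with other annotated genes, 61.7% with the gene model Gm3375.

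The largest falls in the core were in Psma8 and Psmb3. Psma8 had 27.1, 27.1 and 30.6 TPM in M0 and 3.28, 2.90 and 3.08 TPM in M1 (log2 fold change -2.84 ± 0.09 SE, limma adjusted p = 1.23e-16), while Psma7, whose place it takes in testis, changed by -0.11 (0.43 with TMM factors). Psmb3, a beta-ring subunit without an active site, had 489, 492 and 475 TPM and 272, 259 and 282 TPM (log2 fold change -0.84 ± 0.03 SE, limma adjusted p = 6.5e-16). Both were lower in every M1 library, and both falls were called under all 3 scalings. The other 5 core genes that rose, Psmb2, Psmb1, Psmb4, Psma5 and Psma3, did so by 0.12 to 0.25 on the log2 scale. Psma1, Psma4 and Psma7 were called lower, by -0.48, -0.14 and -0.11, and each had a positive change with TMM factors (0.06, 0.40 and 0.43).

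**Figure D2:**
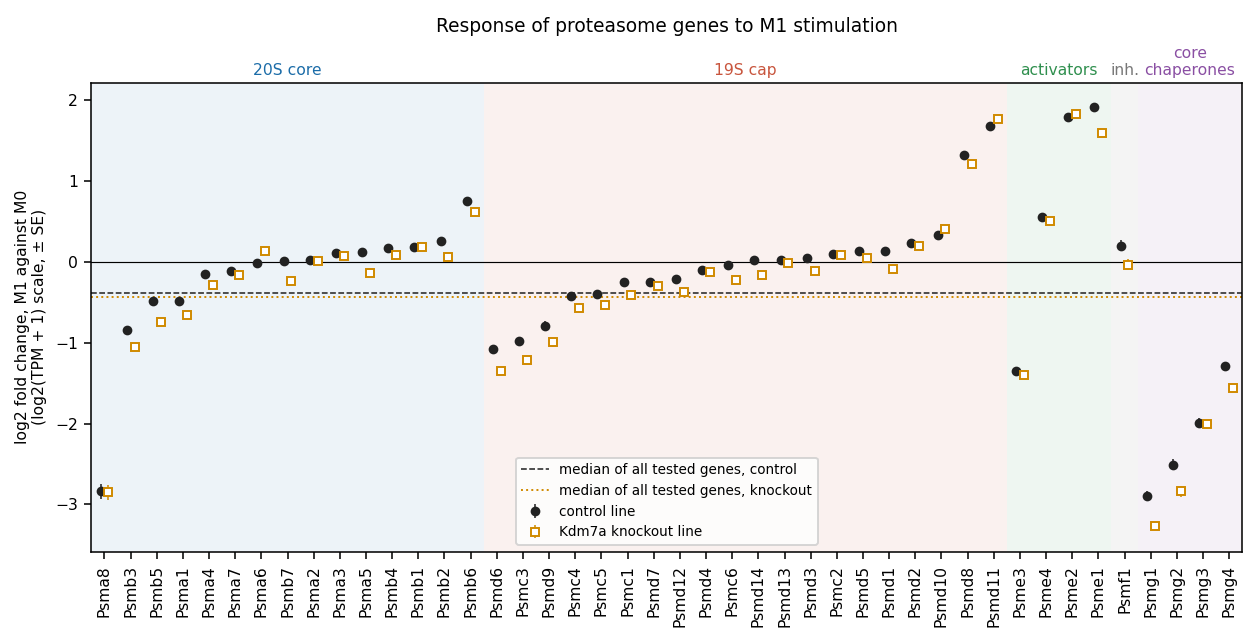
Log2 fold change of M1 against M0 for the 44 tested genes (y axis, log2(TPM + 1) scale, ± SE), ordered within class by the control line. Filled circles are the control line, open squares the knockout line, and the dashed and dotted lines the medians of all 11548 tested genes, -0.38 and -0.43. Psme1, Psme2, Psmd11 and Psmd8 stand highest, and Psmg1, Psma8 and Psmg2 lowest.

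In the cap, 7 of 20 genes rose and 9 fell, with a median change of -0.01 on the log2 scale. With TMM factors 17 rose and 3 fell, with a median of 0.53 against 0.07 over all genes. With median-ratio factors 15 rose and 3 fell. The 2 largest changes were rises of lid subunits. Psmd11, whose product clamps the cap to the core, had 166, 174 and 162 TPM in M0 and 538, 533 and 541 TPM in M1 (log2 fold change 1.68 ± 0.03 SE, limma adjusted p = 2.1e-21). Psmd8 had 256, 265.3 and 244 TPM and 649, 634 and 632 TPM (log2 fold change 1.32 ± 0.03 SE, limma adjusted p = 5.58e-20). The ratio of Psmd11 to the median cap gene of the library went from 0.786 ± 0.041 to 2.85 ± 0.054, and that of Psmd8 from 1.20 ± 0.068 to 3.39 ± 0.11. Psmd11 shares 22.4% of its 31-base stretches with other genes.

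Psmd6, another lid subunit, had 183, 182 and 182 TPM in M0 and 85.4, 85.7 and 85.8 TPM in M1 (log2 fold change -1.08 ± 0.03 SE, limma adjusted p = 1.68e-17). Psmc3, an ATPase of the base, had 273, 275 and 257 TPM and 135, 136 and 137 TPM (log2 fold change -0.97 ± 0.03 SE, limma adjusted p = 6.67e-17). Both were lower in every M1 library and under all 3 scalings. Among the other ATPases, Psmc4, Psmc5 and Psmc1 changed by -0.43, -0.40 and -0.25, were called lower and had positive changes with TMM factors (0.11, 0.14 and 0.29), and Psmc2 rose by 0.10. The scaffold genes Psmd2 and Psmd1 rose by 0.24 and 0.13. Psmd14, which encodes the deubiquitinase of the lid, was not called on the TPM scale (limma adjusted p = 0.555) and was called higher with TMM factors (log2 0.56, limma adjusted p = 7.11e-12), with 198, 200.1 and 199.8 TPM in M0 and 201, 206 and 199.7 TPM in M1. Psmd4, an intrinsic ubiquitin receptor, had 317 ± 2.1 TPM and 295 ± 3.9 TPM.

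The assembly chaperones did not move as 1 group. Of the cap chaperones, Psmd10 rose from 54.5 ± 2.7 TPM to 69.0 ± 3.3 TPM (log2 0.33, adjusted p = 2.24e-06 by limma), Psmd9 fell from 30.1 ± 1.5 TPM to 17.0 ± 1.2 TPM (log2 -0.79, adjusted p = 4.42e-11), and Psmd5 rose from 68.1 ± 2.4 TPM to 74.9 ± 4.8 TPM, no longer called without control M1 library 3 (adjusted p = 0.0733). Psmd9 overlaps Gm26745, a gene on the opposite strand, over 25.5% of its exon bases. All 4 core chaperones fell, and the order of their levels changed. Psmg1 fell from 94.2 ± 4.2 TPM to 11.8 ± 0.42 TPM (log2 fold change -2.89 ± 0.05 SE, limma adjusted p = 3.65e-21), and Psmg2 from 68.6 ± 2.4 TPM to 11.2 ± 0.16 TPM (log2 -2.51, adjusted p = 2.3e-18 by limma). Psmg3 fell from 89.6 ± 1.0 TPM to 21.9 ± 1.7 TPM, and Psmg4 from 73.2 ± 2.3 TPM to 29.3 ± 1.1 TPM. The 4 falls were called under all 3 scalings. Psmf1 rose from 21.9 ± 1.7 TPM to 25.4 ± 0.15 TPM (log2 0.20, adjusted p = 0.00557 by limma).

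**Figure D3:**
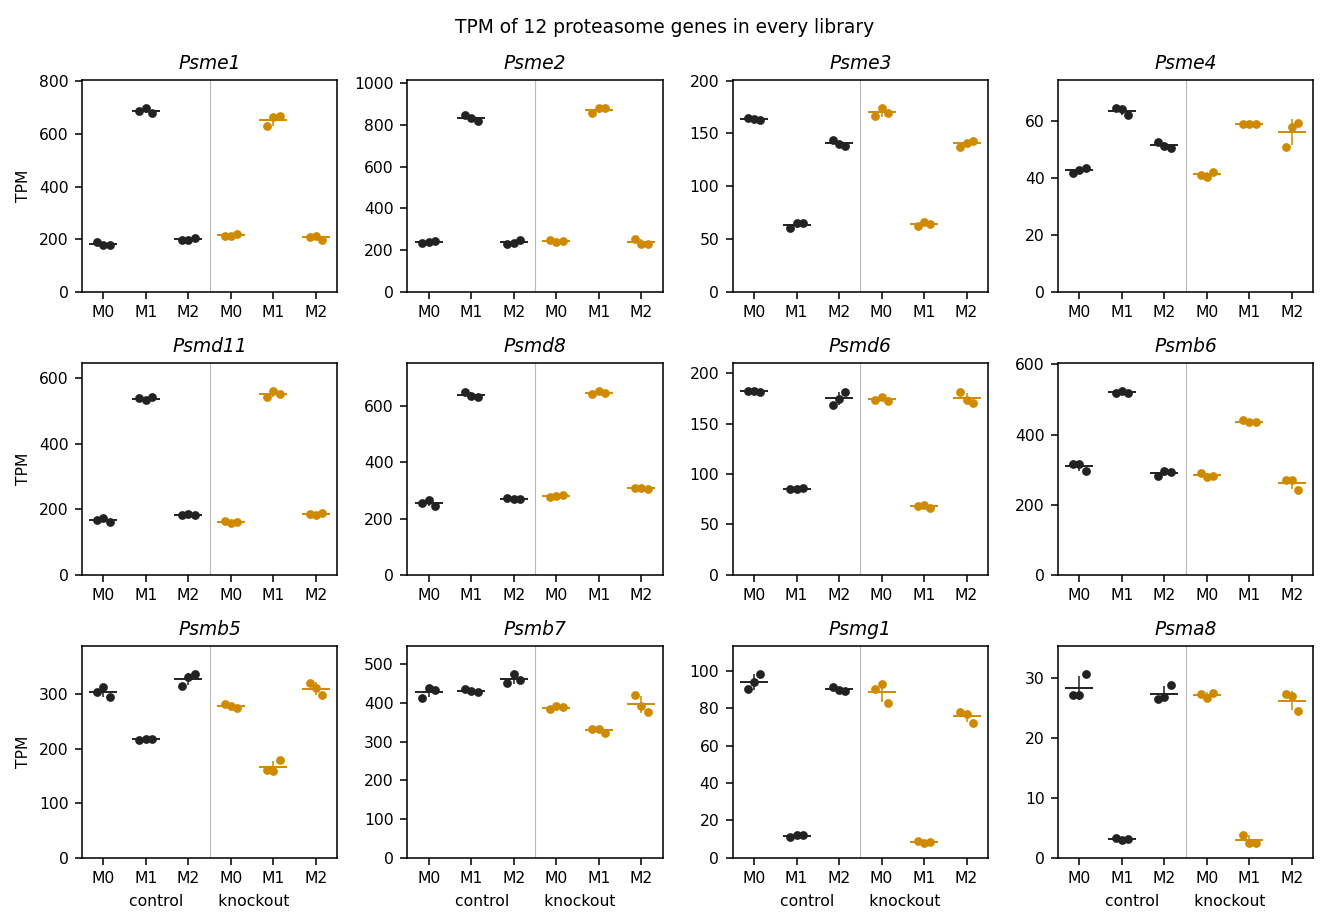
TPM of 12 proteasome genes in every library; points are libraries, horizontal bars the mean and vertical bars the SD of 3, black for the control line and orange for the knockout line, and each axis starts at 0. Psme1, Psme2, Psmd11 and Psmd8 were high and Psme3, Psmd6, Psmg1 and Psma8 low in all 6 M1 libraries; Psmb5, Psmb6 and Psmb7 were lower in the knockout M1 libraries than in the control M1 libraries.

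In the knockout line, M1 raised 14 genes and lowered 26, with 4 not called; 32% of all genes were called higher and 58.4% lower. The median change of the 44 was -0.14 on the log2 scale. With TMM factors 30 rose and 11 fell, beside 5437 of all 11548 genes called higher and 4996 lower. With median-ratio factors 30 rose and 12 fell, beside 5243 and 5136 of all genes. Of the 17 genes that rose and the 20 that fell in the control line, 13 and 20 did so here. Calls shared by both lines were not counted over all genes, of which 32.2% rose and 56.9% fell in the control line. The overlap therefore does not set the members apart. The core summed to 5236 ± 42 TPM in M0 and 4829 ± 45 TPM in M1, and the 3 largest changes on the TPM scale were falls of Psma8, Psmb3 and Psmb5. With TMM factors the rises of Psmb6 (1.22) and Psmb1 (0.78) exceeded the falls of Psmb3 (-0.46) and Psmb5 (-0.15). Psmb5 had 281, 278 and 275 TPM and 159.9, 158 and 179 TPM (log2 fold change -0.74 ± 0.04 SE, limma adjusted p = 5.74e-13), called under all 3 scalings in this line. Psmb3 had 459.8, 464 and 451 TPM and 219, 225 and 220.0 TPM (log2 fold change -1.05 ± 0.03 SE, limma adjusted p = 1.32e-17). Psma8 had 27.2, 26.6 and 27.5 TPM and 3.84, 2.54 and 2.47 TPM. All M1 libraries lay below all M0 libraries for these 3 genes.

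Psmb6 rose in the knockout line too, from 292, 278 and 280.4 TPM to 441, 435 and 435 TPM (log2 fold change 0.62 ± 0.04 SE, limma adjusted p = 5.01e-12). Psmb7 had 385, 391 and 389 TPM and 332, 333 and 322 TPM (log2 fold change -0.24 ± 0.03 SE, limma adjusted p = 2.14e-06), and 0.35 with TMM factors. In the cap, Psmd11 had 165, 159 and 160.0 TPM and 543, 561 and 553 TPM (log2 fold change 1.77 ± 0.03 SE, limma adjusted p = 7.96e-22). Psmd6 had 174, 177 and 173 TPM and 68.3, 69.7 and 66.2 TPM (log2 fold change -1.35 ± 0.03 SE, limma adjusted p = 3.72e-19), and Psmc3 had 254, 250.4 and 246 TPM and 105, 109 and 107 TPM (log2 fold change -1.22 ± 0.03 SE, limma adjusted p = 1.37e-18). Both lid subunits and the ATPase moved in the direction seen in the control line, without overlap. Psmd8 had 276, 281 and 283 TPM and 643, 654 and 647 TPM (log2 fold change 1.21 ± 0.03 SE, limma adjusted p = 2.06e-19).

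Among the activators, Psme1 had 213, 212 and 219.6 TPM in M0 and 629, 665 and 667 TPM in M1 knockout cells (log2 fold change 1.60 ± 0.03 SE, limma adjusted p = 4.33e-20), and Psme2 had 249, 239 and 243 TPM and 855, 881 and 882 TPM (log2 fold change 1.84 ± 0.04 SE, limma adjusted p = 5.31e-20). Psme4 had 41.2, 40.3 and 42.2 TPM and 58.9, 58.8 and 59.1 TPM (log2 fold change 0.51 ± 0.05 SE, limma adjusted p = 1.89e-09). Psme3 had 166, 174 and 169.8 TPM and 62.3, 66.0 and 64.2 TPM (log2 fold change -1.39 ± 0.04 SE, limma adjusted p = 9.18e-19). None of these groups overlapped. The 4 core chaperones had log2 changes of -3.27 to -1.56, all called lower, with Psmg1 going from 88.9 ± 5.4 TPM to 8.32 ± 0.56 TPM (adjusted p = 4.5e-22).

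Under M2 the log2 changes of the members ran from -0.66 to 0.26 in the control line. In the control line 10 genes rose, 10 fell and 24 were not called, beside 28.4% of all genes called higher and 37% lower, and the median change of the 44 was -0.01 on the log2 scale. With TMM factors 18 rose and 4 fell, beside 3871 of all 11548 genes called higher and 3484 lower. With median-ratio factors 10 rose and 8 fell, beside 3320 and 4170 of all genes. The count of falls was 6 without control M0 library 2 and 5 without control M2 library 1. Log2 changes of the core genes ran from -0.11 to 0.11. The largest falls were in the core chaperones Psmg4, from 73.2 ± 2.3 TPM to 46.1 ± 2.9 TPM (log2 fold change -0.66 ± 0.05 SE, limma adjusted p = 1.05e-09), and Psmg3, from 89.6 ± 1.0 TPM to 69.4 ± 1.8 TPM (log2 -0.36, adjusted p = 2.55e-05 by limma).

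Among the activators, Psme4 had 52.7, 51.0 and 50.7 TPM in M2 control cells, above all M0 libraries (log2 fold change 0.26 ± 0.05 SE, limma adjusted p = 4.57e-05). Psme3 had 143, 140.4 and 138 TPM, below all M0 libraries (log2 fold change -0.21 ± 0.04 SE, limma adjusted p = 2.48e-05). Psme1 had 197, 198 and 204 TPM, also above all M0 libraries (log2 fold change 0.14 ± 0.03 SE, limma adjusted p = 0.00124). Psme2, with 229, 236 and 248 TPM, overlapped M0 and was not called (adjusted p = 0.895). The PA28 pair thus summed to 437 ± 13 TPM in M2, against 419.9 ± 5.8 TPM in M0 and 1521 ± 18 TPM in M1.

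In the cap, Psmd10 had 53.1, 57.6 and 52.9 TPM in M0 and 42.9, 47.1 and 42.8 TPM in M2 control cells (log2 fold change -0.30 ± 0.05 SE, limma adjusted p = 2.45e-05), while it rose under M1. Psmd2, which encodes a scaffold and docking subunit, had 246, 261 and 248 TPM and 289.6, 302 and 294 TPM (log2 fold change 0.23 ± 0.03 SE, limma adjusted p = 7.01e-06). Neither pair of groups overlapped. Psmd9 had 29.5, 31.8 and 29.0 TPM and 26.6, 27.2 and 27.4 TPM (log2 fold change -0.15 ± 0.06 SE, limma adjusted p = 0.0302), no longer called without control M0 library 2 or control M2 library 1 or 2 (adjusted p = 0.0564 to 0.146). The largest core changes on the TPM scale were those of Psma5, with 454, 462 and 458 TPM and 413, 429.9 and 428 TPM (log2 fold change -0.11 ± 0.03 SE, limma adjusted p = 0.00213), Psma6, with 380.0, 419 and 401 TPM and 360.4, 378 and 371 TPM (log2 fold change -0.11 ± 0.04 SE, limma adjusted p = 0.0122), and Psmb7, with 452, 475 and 459 TPM in M2 (log2 fold change 0.11 ± 0.03 SE, limma adjusted p = 0.00895). Psmb5 had 314, 330.1 and 337 TPM in M2 (log2 fold change 0.11 ± 0.04 SE, limma adjusted p = 0.0305). The call of Psmb7 was lost without control M0 library 1 or control M2 library 2 (adjusted p = 0.0522 to 0.0581), and that of Psmb5 without control M0 library 1 or 3 or control M2 library 2 or 3 (adjusted p = 0.0584 to 0.126). With TMM factors 9 core genes were higher and 0 lower, and the falls of Psma5, Psma6, Psmb6 and Psmd9 were not called (adjusted p = 0.284, 0.358, 0.638 and 0.259). Psmb6 had 281, 297 and 292 TPM (log2 fold change -0.09 ± 0.04 SE, limma adjusted p = 0.0449), overlapping M0, no longer called without control M0 library 1 or 2 or control M2 library 1 or 3 (adjusted p = 0.0668 to 0.174). The call of Psma6 was lost without control M0 library 2 or control M2 library 1 (adjusted p = 0.0593 to 0.0895).

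In the knockout line M2 raised 18 genes and lowered 11, beside 29.6% and 43.2% of all genes, with a median change of 0.02 on the log2 scale. With TMM factors 27 rose and 7 fell, beside 4148 of all 11548 genes called higher and 3921 lower. With median-ratio factors 19 rose and 8 fell, beside 3728 and 4526 of all genes. Of the 20 cap genes 12 rose, and all 12 were called higher under all 3 scalings. The calls of Psmc3, Psmd1, Psmd4, Psmd7 and Psmd12 were each lost without at least 1 library (limma adjusted p = 0.0595 to 0.12). Psmd2 had 242, 241 and 247 TPM in M0 and 294, 312 and 322 TPM in M2 (log2 fold change 0.34 ± 0.03 SE, limma adjusted p = 2.05e-08), and Psmc1, an ATPase gene, had 274, 281 and 280.0 TPM and 332, 321 and 326 TPM (log2 fold change 0.23 ± 0.03 SE, limma adjusted p = 1.41e-06). Psmd10 had 51.6, 53.1 and 55.3 TPM and 40.1, 39.4 and 36.9 TPM (log2 fold change -0.45 ± 0.05 SE, limma adjusted p = 7.96e-08). The M2 libraries lay above M0 for Psmd2 and Psmc1 and below it for Psmd10.

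In the core, Psma5 had 460.4, 476 and 464 TPM and 423, 396 and 409 TPM (log2 fold change -0.19 ± 0.03 SE, limma adjusted p = 8.59e-06). Psmb5 had 321, 310.3 and 298 TPM in M2 (log2 fold change 0.15 ± 0.04 SE, limma adjusted p = 0.0025), above its M0 libraries, and Psmb4 had 534, 539 and 517 TPM and 608, 560.2 and 577 TPM (log2 fold change 0.13 ± 0.03 SE, limma adjusted p = 0.00163). Psmb6 had 269, 272 and 242 TPM in M2 (log2 fold change -0.12 ± 0.04 SE, limma adjusted p = 0.0104), no longer called without knockout M0 library 1 or knockout M2 library 3 (adjusted p = 0.0522 to 0.0979), nor with TMM factors. Psmb7 had 420.4, 391 and 378 TPM (adjusted p = 0.463), and was called higher with TMM factors (log2 0.13, limma adjusted p = 0.0165). Of the activators, Psme4 had 50.8, 58.0 and 59.2 TPM (log2 fold change 0.43 ± 0.05 SE, limma adjusted p = 6.57e-08), and Psme3 had 138, 141 and 143 TPM (log2 fold change -0.27 ± 0.04 SE, limma adjusted p = 9.26e-07). Psme1, with 209, 212 and 198 TPM, and Psme2, with 255, 227 and 227 TPM, overlapped M0 and were not called (adjusted p = 0.134 and 0.304). All 4 core chaperones fell, with log2 changes from -0.82 for Psmg4 to -0.23 for Psmg1.

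Without stimulation 2 genes were higher and 10 lower in the knockout line, beside 8.86% and 10.3% of all genes, and the median difference of the 44 was -0.05 on the log2 scale. The count of lower genes was 4 without control M0 library 2, 5 without knockout M0 library 1, 4 without knockout M0 library 2 or 3, 6 with TMM factors and 4 without the variance trend. Psme1 was higher, with 213, 212 and 219.6 TPM against 189, 177 and 179 TPM in the control line (log2 fold change 0.24 ± 0.03 SE, limma adjusted p = 2.21e-05), and so was Psmd8, with 276, 281 and 283 TPM against 256, 265.3 and 244 TPM (log2 fold change 0.13 ± 0.03 SE, limma adjusted p = 0.00175). Neither overlapped. Psme2, Psme3 and Psme4 were not called (adjusted p = 0.661, 0.304 and 0.525).

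Of the ATPases, Psmc2 had 169.8, 161 and 163 TPM in the knockout line against 187, 184 and 188 TPM (log2 fold change -0.18 ± 0.03 SE, limma adjusted p = 0.000265). Psmd7, the partner of Psmd14 in the lid, had 194, 196 and 198 TPM against 222, 209 and 215 TPM (log2 fold change -0.13 ± 0.03 SE, limma adjusted p = 0.00553). Both were lower in all 3 knockout libraries and called under all 3 scalings. Of the active-site genes, Psmb7 had 385, 391 and 389 TPM against 413, 438 and 433 TPM (log2 fold change -0.14 ± 0.03 SE, limma adjusted p = 0.00663), without overlap. Psmb5, with 281, 278 and 275 TPM against 304, 313 and 294 TPM (log2 fold change -0.13 ± 0.04 SE, limma adjusted p = 0.0375), and Psmb6, with 292, 278 and 280.4 TPM against 316, 317 and 295 TPM (log2 fold change -0.13 ± 0.04 SE, limma adjusted p = 0.0303), did not overlap either. The call of Psmb5 was lost without control M0 library 1 or 2 or knockout M0 library 1, 2 or 3 (adjusted p = 0.0628 to 0.151) and that of Psmb6 without control M0 library 1 or 2 or knockout M0 library 2 or 3 (adjusted p = 0.0929 to 0.122), and neither was called with TMM factors. The other genes called lower were Psmb1, Psmc3, Psmc4, Psmc6 and Psmd14, with log2 differences of -0.12 to -0.09, and each lost its call without at least 1 library.

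**Figure D4:**
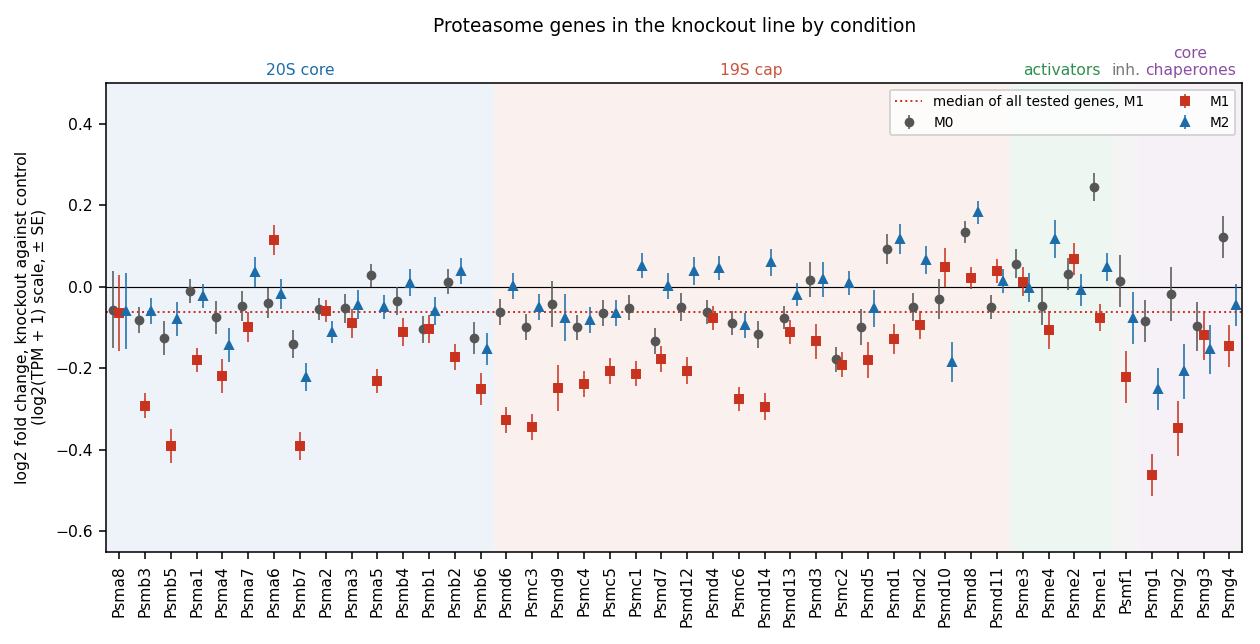
Log2 fold change of the knockout against the control line for the 44 tested genes in each condition (y axis, log2(TPM + 1) scale, ± SE; grey circles M0, red squares M1, blue triangles M2), in the gene order of the M1 response plot. The dotted line is the median of all tested genes in M1, -0.06. Under M1 33 genes were called lower and 1 higher in the knockout line, against 10 and 2 in M0 and 8 and 2 in M2. Of all tested genes, 33.4% were called lower and 16.9% higher in M1. These shares were 10.3% and 8.86% in M0, and 18.3% and 12.7% in M2.

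Under M1, 33 of the 44 genes were lower in the knockout line and 1 was higher, beside 33.4% of all genes lower and 16.9% higher. They included 12 of 15 core genes, 17 of 20 cap genes, 3 of 4 core chaperones and Psmf1, and no activator; with TMM factors 8 core and 12 cap genes were lower. The median difference was -0.18 on the log2 scale, against -0.06 over all genes. With TMM factors, as with median-ratio factors, 23 were lower and 4 higher. Over all 11548 genes 3178 were lower and 2722 higher with TMM factors, and 3058 and 2813 with median-ratio factors. The 23 lower members were the same genes under all 3 scalings. Psma6, the 1 gene called higher, had 418, 448 and 419 TPM in knockout and 391, 397 and 399 TPM in control M1 cells (log2 fold change 0.11 ± 0.04 SE, limma adjusted p = 0.0143), and no gene was called higher without control M1 library 1 or knockout M1 library 2 (for Psma6, adjusted p = 0.0502 to 0.0928). The summed core was 4829 ± 45 TPM against 5412 ± 37 TPM, and the summed cap 3879 ± 28 TPM against 4215 ± 19.6 TPM.

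All 3 constitutive active-site genes were lower in M1 knockout cells. Psmb7 had 332, 333 and 322 TPM against 437, 432 and 428 TPM in the control line (log2 fold change -0.39 ± 0.03 SE, limma adjusted p = 1.72e-08). Psmb5 had 159.9, 158 and 179 TPM against 216, 218 and 217 TPM (log2 fold change -0.39 ± 0.04 SE, limma adjusted p = 2.02e-07). Psmb6 had 441, 435 and 435 TPM against 517, 525 and 519 TPM (log2 fold change -0.25 ± 0.04 SE, limma adjusted p = 2.66e-05). No knockout library reached the lowest control library for any of the 3, and each was called lower under all 3 scalings. Together they summed to 932 ± 4.9 TPM against 1170.0 ± 5.3 TPM. Psmb3 had 219, 225 and 220.0 TPM against 272, 259 and 282 TPM (log2 fold change -0.29 ± 0.03 SE, limma adjusted p = 2.16e-07), and Psma5 had 427, 430.1 and 421 TPM against 507, 485 and 508 TPM (log2 fold change -0.23 ± 0.03 SE, limma adjusted p = 1.88e-06). Psma2 and Psma8 were the 2 core genes with no call (adjusted p = 0.0759 and 0.594).

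In the cap, Psmc3 had 105, 109 and 107 TPM against 135, 136 and 137 TPM (log2 fold change -0.34 ± 0.03 SE, limma adjusted p = 2.95e-08), Psmd6 had 68.3, 69.7 and 66.2 TPM against 85.4, 85.7 and 85.8 TPM (log2 fold change -0.33 ± 0.03 SE, limma adjusted p = 7.6e-08), and Psmd14 had 167, 160.3 and 167 TPM against 201, 206 and 199.7 TPM (log2 fold change -0.29 ± 0.03 SE, limma adjusted p = 3.63e-07). None of these groups overlapped. All 6 ATPase genes were lower, with log2 differences of -0.34 to -0.19, and all 6 under all 3 scalings. The 3 cap genes with no call were Psmd8, Psmd10 and Psmd11, with log2 differences of 0.02, 0.05 and 0.04, and with TMM factors Psmd8 (log2 0.08, limma adjusted p = 0.0364) and Psmd11 (log2 0.10, limma adjusted p = 0.0182) were called higher. Among the core chaperones, Psmg1 stood at 8.32 ± 0.56 TPM against 11.8 ± 0.42 TPM (log2 fold change -0.46 ± 0.05 SE, limma adjusted p = 4.29e-07) and Psmg2 at 8.64 ± 1.0 TPM against 11.2 ± 0.16 TPM (log2 -0.35, adjusted p = 0.000225 by limma). Psmg4 had a log2 difference of -0.14, no longer called without control M1 library 2 or 3 or knockout M1 library 1 (adjusted p = 0.0621 to 0.155) or under TMM factors. Psmf1 had 21.6 ± 0.83 TPM against 25.4 ± 0.15 TPM (log2 -0.22, adjusted p = 0.00688 by limma).

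None of the 4 activators was called in this comparison on the TPM scale, while with TMM factors Psme2 was higher in the knockout line (log2 0.12, limma adjusted p = 0.04). In M1 cells, Psme1 had 629, 665 and 667 TPM in the knockout and 687, 699.7 and 680.4 TPM in the control line (log2 difference -0.08 ± 0.03 SE, limma adjusted p = 0.0685). Psme2 had 855, 881 and 882 TPM and 846, 831 and 819.5 TPM (log2 0.07 ± 0.04, adjusted p = 0.158), Psme3 62.3, 66.0 and 64.2 TPM and 60.2, 65.3 and 65.6 TPM (log2 0.01 ± 0.04, adjusted p = 0.811), and Psme4 58.9, 58.8 and 59.1 TPM and 64.6, 64.1 and 62.0 TPM (log2 -0.11 ± 0.05, adjusted p = 0.0609). The knockout libraries lay below the control libraries for Psme1 and Psme4 and above them for Psme2. Whether the activators differed from the core and cap in this respect was not tested.

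Under M2, 2 genes were higher and 8 lower in the knockout line, beside 12.7% and 18.3% of all genes, and the median difference of the 44 was -0.03 on the log2 scale, the same as that of all genes. With TMM factors, as with median-ratio factors, 5 were higher and 3 lower. All genes shifted too, to 1953 of 11548 higher and 1528 lower with TMM factors, and 1920 and 1549 with median-ratio factors. The count of higher genes was 1 without control M2 library 1 or 2 or knockout M2 library 2 and 4 without knockout M2 library 1, and that of lower genes was 5 without control M2 library 3. Psmb7 had 420.4, 391 and 378 TPM against 452, 475 and 459 TPM (log2 fold change -0.22 ± 0.03 SE, limma adjusted p = 6.62e-05), without overlap, and Psmb6 had 269, 272 and 242 TPM against 281, 297 and 292 TPM (log2 fold change -0.15 ± 0.04 SE, limma adjusted p = 0.00614). Psmb5 was not called (adjusted p = 0.162), nor was Psmb6 with TMM factors. Psma4 had 362, 334 and 323 TPM against 357, 374 and 394 TPM (log2 fold change -0.14 ± 0.04 SE, limma adjusted p = 0.0122), no longer called without control M2 library 3 or knockout M2 library 3 (adjusted p = 0.0738 to 0.0774) or with TMM factors.

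In the cap under M2, Psmd8 was higher, with 308, 308 and 306 TPM against 273, 269 and 269 TPM (log2 fold change 0.18 ± 0.03 SE, limma adjusted p = 5.31e-05), as it was without stimulation. Psmd1 had 193, 199 and 193 TPM against 173, 173 and 194 TPM (log2 fold change 0.12 ± 0.04 SE, limma adjusted p = 0.0218), no longer called without control M2 library 1 or 2 or knockout M2 library 2 (adjusted p = 0.0834 to 0.116). Psmd10 had 40.1, 39.4 and 36.9 TPM against 42.9, 47.1 and 42.8 TPM (log2 fold change -0.18 ± 0.05 SE, limma adjusted p = 0.00712), no longer called without control M2 library 2 (adjusted p = 0.0524). Psmg1 stood at 75.8 ± 3.0 TPM against 90.3 ± 0.97 TPM (log2 fold change -0.25 ± 0.05 SE, limma adjusted p = 0.001). No activator was called on the TPM scale (adjusted p = 0.0592 for Psme4, the lowest of the 4), but with TMM factors Psme4 was higher (log2 0.15, limma adjusted p = 0.00492). Psmb7 was the 1 member called lower in the knockout line in all 3 conditions under all 3 scalings.

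The M1 response itself differed between the lines for 22 genes by the interaction test, the response of the knockout line minus that of the control line. It was lower in the knockout line for 21 and higher for 1, beside 23.9% of all genes lower and 12.1% higher, and the median of the 44 was -0.14 on the log2 scale, against -0.07 over all genes. With median-ratio factors 12 were lower, beside 2131 of all 11548 genes. These 12 were called lower under all 3 scalings: Psma5, Psmb2, Psmb3, Psmb5, Psmb7, Psmc3, Psmc6, Psmd1, Psmd6, Psme1, Psmg1 and Psmg2. Psma6 was the 1 gene with a higher response (log2 0.16 ± 0.05 SE, limma adjusted p = 0.0257); no gene was called higher without control M0 library 2, control M1 library 1, knockout M0 library 1 or 3 or knockout M1 library 2 (for Psma6, adjusted p = 0.0561 to 0.0831), and 2 were without control M0 library 3.

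Psme1 rose by 1.92 in the control line and 1.60 in the knockout line, where it started higher (difference -0.32 ± 0.05 SE, limma adjusted p = 3.32e-05). Psme2, its partner in PA28, rose by 1.80 and 1.84 (difference 0.04 ± 0.06, adjusted p = 0.634). Psmb5 changed by -0.48 and -0.74 (difference -0.26 ± 0.06, adjusted p = 0.00156) and Psmb7 by 0.01 and -0.24 (difference -0.25 ± 0.05, adjusted p = 0.000506). For Psmb6 the difference was -0.13 ± 0.06 and not called (adjusted p = 0.0871). Psma5 moved in opposite directions, 0.13 and -0.13 (adjusted p = 7.02e-05), but with TMM factors it rose in both lines. In the cap the largest differences were those of Psmd6 (-0.27 ± 0.05, adjusted p = 0.000156), Psmc3 (-0.24 ± 0.04, adjusted p = 0.000287) and Psmd1 (-0.22 ± 0.05, adjusted p = 0.00267).

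The M2 response differed for 3 genes, 2 with a higher and 1 with a lower response in the knockout line, beside 7.06% and 7.05% of all genes, and the median of the 44 was 0.02 on the log2 scale. With TMM factors, as with median-ratio factors, 6 were higher and 1 lower. Over all 11548 genes 1021 were higher and 605 lower with TMM factors, and 1033 and 585 with median-ratio factors. Without knockout M2 library 1 there were 5 members higher and 2 lower. Psmc2 had 175, 185 and 186 TPM in M2 control and 185, 182 and 182 TPM in M2 knockout cells, after being lower in the knockout line without stimulation (difference 0.19 ± 0.04 SE, limma adjusted p = 0.00621). Psmd14 had 182, 182 and 188 TPM in M0 and 199, 205 and 206 TPM in M2 knockout cells, against 198, 200.1 and 199.8 TPM and 185, 197 and 203 TPM in the control line (difference 0.18 ± 0.05, adjusted p = 0.0137). Psme1 had the lower response (difference -0.20 ± 0.05, adjusted p = 0.00848).

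Genes that act with these members were taken from lists. The 3 immunoproteasome active-site genes all rose under M1 in the control line, Psmb8 from 230.0 ± 3.2 TPM to 434 ± 10.1 TPM, Psmb9 from 58.3 ± 1.6 TPM to 338 ± 7.2 TPM and Psmb10 from 63.6 ± 0.55 TPM to 264.8 ± 1.7 TPM. The ratio of Psmb8 to Psmb5, which occupy the same place in the ring, went from 0.757 ± 0.014 to 2.00 ± 0.055 in the control line. In the knockout line it went from 1.08 ± 0.017 to 2.91 ± 0.2. By the interaction test, the M1 response of all 3 immunoproteasome genes was called lower in the knockout line, beside 23.9% of all genes. Their median log2 difference was -0.36. In the knockout line, Psmb8 went from 301.1 ± 7.6 TPM in M0 to 481.5 ± 7.6 TPM in M1. Psmb9 went from 86.0 ± 5.3 TPM to 342.5 ± 5.4 TPM, and Psmb10 from 67.95 ± 1.8 TPM to 219.4 ± 2.3 TPM. Psmb8 and Psmb9 thus started higher in the knockout line and their means did not end lower in M1, while that of Psmb10 did. Of 10 genes for proteins that bind the proteasome, 7 fell and none rose under M1 in the control line, beside 56.9% of all genes called lower and 32.2% higher, with a median log2 change of -0.69 against -0.38 over all genes. With TMM factors 6 fell and 4 rose, with a median of -0.16, beside 4875 of all 11548 genes called lower and 5454 higher. This count was added after the data were seen. Ubqln4, a ubiquitin shuttle, fell from 79.8 ± 3.3 TPM to 18.7 ± 1.1 TPM, and the deubiquitinases Usp14 and Uchl5 from 121 ± 5.9 TPM to 47.6 ± 1.1 TPM and from 155 ± 6.6 TPM to 60.6 ± 2.5 TPM (limma adjusted p = 1.49e-19, 2.5e-18 and 4e-16).

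Of 5 genes of the NRF1 and NRF2 route, 1 rose and 4 fell under M1 in the control line. The shares of all genes were the same 32.2% and 56.9%. With TMM factors 2 rose and 2 fell, beside the same 5454 and 4875 of all genes. Nfe2l1, which encodes NRF1, rose from 176 ± 3.7 TPM to 210.2 ± 2.8 TPM, and Nfe2l2, which encodes NRF2, fell from 150.0 ± 0.62 TPM to 96.3 ± 1.6 TPM. Nfe2l1 was lower in the knockout line in M0, M1 and M2, with log2 differences of -0.31, -0.16 and -0.13 (limma adjusted p = 1.7e-05, 0.00347 and 0.0277), the last not called with TMM factors. Nfe2l2 was lower in M0 and M1, with log2 differences of -0.15 and -0.29 (adjusted p = 0.00949 and 2.57e-06), and not called in M2 (0.06, adjusted p = 0.256). Pomp, the maturation factor of the core, was higher in M2 than in M0 control cells, at 495 ± 33 TPM against 309 ± 9.9 TPM (limma adjusted p = 4.24e-11). In M1 control cells it stood at 345 ± 2.05 TPM, above all M0 libraries. In M0, M1 and M2 knockout cells it stood at 320.5 ± 13.5 TPM, 393 ± 6.4 TPM and 485 ± 24 TPM.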

How the data were processed

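RNA was measured in 18 libraries, 3 in each of 6 groups. The deposited table holds TPM made by the authors; although its name speaks of raw counts, each library sums to between 999999 and 1000001. Per the submitters' processing notes, Trim Galore was used (version not given in the sources used here) and the genome build was mm10; for the aligner and quantifier, too, none is named there or in the labels (not given in the sources used here). TPM keeps no depth, so precision was read from replicates alone. No 2 of the 18 libraries were identical.

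Genes with at least 1 TPM in at least 3 libraries were kept, log2(TPM + 1) was taken, and limma 3.58.1 in R 4.3.3 was fitted over the 6 groups with a variance trend and Benjamini-Hochberg adjustment over 11548 genes in each of 9 comparisons; fold changes understate low genes. The code was tested on simulated data. Values per library were given for Psme1 to Psme4, Psmb5 to Psmb7, and up to 3 called core and 3 called cap genes with the largest change per comparison; a few others were named after their values were seen. M1 and M2 comparisons share M0 libraries. Alternatives were TMM and median-ratio factors, a pseudocount of 0.1 TPM, no filter, a filter of 5 TPM, no variance trend, only the groups compared, the replicate block, and each library left out. Members and lists were chosen with earlier results of these data known. A single gene list and 1 promoter motif are not reported here. Promoters came from RefSeq GRCm38.p6, and shared 31-base stretches and exon overlaps from GENCODE transcripts of GRCm38.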

Additional observations from a re-analysis of the deposited data

Results flagged for a closer look

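The test of the interaction between line and stimulus found that the M1 response of 22 members and the M2 response of 3 differed between the knockout and the control line (limma, adjusted p below 0.05 over all genes). Over all genes 23.9% had a lower and 12.1% a higher M1 response in the knockout line. For M2 these shares were 7.05% and 7.06%. The values are log2 differences, the knockout response minus the control response. For M1 the lower responses were those of Psmg1 (-0.38), Psmg2 (-0.33), Psme1 (-0.32), Psmg4 (-0.27), Psmd6 (-0.27), Psmb5 (-0.26), Psma5 (-0.26), Psmb7 (-0.25), Psmc3 (-0.24), Psmf1 (-0.24), Psmd1 (-0.22), Psmb3 (-0.21), Psmc6 (-0.19), Psmb2 (-0.19), Psmd14 (-0.18), Psma1 (-0.17), Psmc1 (-0.16), Psmd12 (-0.16), Psmc5 (-0.14), Psmc4 (-0.14) and Psmd8 (-0.11). The 1 higher response was that of Psma6 (0.16). Of the lower M1 responses, 12 were called lower under all 3 scalings. With 1 library left out, M1 calls were lost for Psmf1 (9 libraries), Psmd8 (6), Psma6 (5), Psmc4 (4) and Psmc5 (3). For M2 they were Psme1 (-0.20), Psmd14 (0.18) and Psmc2 (0.19).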

How the results depend on the processing

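Over the 44 tested genes and 9 comparisons, 5454 gene results under alternatives kept their sign and side of the threshold, 283 lost a call and 91 gained one. The sign changed for 56 that were called in at least 1 of the 2 fits, all of them with TMM or median-ratio factors, and for 188 that were called in neither, 68 of them with these factors. Depth is unknown, since TPM keeps none, and no interval for counting error can be given. With 1 library left out at a time, members called were 16 to 17 higher and 20 to 20 lower for M1 in the control line, 7 to 11 higher and 5 to 10 lower for M2 in the control line, 11 to 12 higher and 24 to 26 lower for M1 in the knockout line, 13 to 18 higher and 8 to 11 lower for M2 in the knockout line, 2 to 2 higher and 4 to 8 lower for knockout against control in M0, 0 to 1 higher and 27 to 32 lower for knockout against control in M1, 1 to 4 higher and 5 to 8 lower for knockout against control in M2, 0 to 2 higher and 18 to 23 lower for the M1 response between lines, 2 to 5 higher and 1 to 2 lower for the M2 response between lines.

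Under TMM factors the following values moved. Members called were 32 higher and 10 lower, and median log2 changes were 0.55 for the 20S core, 0.53 for the 19S cap and 1.71 for the activators, and opposite-sign values were Psma1 0.058, Psma4 0.40, Psma6 0.52, Psma7 0.43, Psmb5 0.056, Psmc1 0.29, Psmc4 0.11, Psmc5 0.14, Psmc6 0.50, Psmd4 0.43, Psmd7 0.29 and Psmd12 0.32 for M1 in the control line. Members called were 18 higher and 4 lower, and median log2 changes were 0.11 for the 20S core, 0.049 for the 19S cap and 0.13 for the activators for M2 in the control line. Members called were 30 higher and 11 lower, and median log2 changes were 0.46 for the 20S core, 0.45 for the 19S cap and 1.64 for the activators, and opposite-sign values were Psma4 0.31, Psma5 0.46, Psma7 0.43, Psmb7 0.35, Psmc1 0.18, Psmc4 0.026, Psmc5 0.052, Psmc6 0.37, Psmd1 0.50, Psmd3 0.48, Psmd4 0.47, Psmd7 0.30, Psmd12 0.22, Psmd13 0.58, Psmd14 0.43 and Psmf1 0.54 for M1 in the knockout line. Members called were 7 lower, and median log2 changes were 0.13 for the 20S core, 0.18 for the 19S cap and 0.046 for the activators, and opposite-sign values were Psma2 0.080, Psma6 0.0094, Psmc4 0.085 and Psmc5 0.089 for M2 in the knockout line. Members called were 6 lower for knockout against control in M0. Members called were 4 higher, and median log2 changes were -0.12 for the 20S core, -0.13 for the 19S cap and 0.024 for the activators for knockout against control in M1. Members called were 5 higher and 3 lower, and median log2 changes were 0.039 for the 19S cap and 0.056 for the activators for knockout against control in M2. Members called were 2 higher, and median log2 changes were -0.072 for the 20S core, -0.086 for the 19S cap and 0.0020 for the activators for the M1 response between lines. Members called were 6 higher, and median log2 changes were 0.084 for the 19S cap and -0.018 for the activators for the M2 response between lines.

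Under median-ratio factors the following values moved. Members called were 30 higher and 10 lower, and median log2 changes were 0.48 for the 20S core, 0.46 for the 19S cap and 1.64 for the activators, and opposite-sign values were Psma4 0.32, Psma6 0.45, Psma7 0.36, Psmc1 0.22, Psmc4 0.040, Psmc5 0.069, Psmc6 0.43, Psmd4 0.36, Psmd7 0.22 and Psmd12 0.25 for M1 in the control line. Members called were 30 higher and 12 lower, and median log2 changes were 0.40 for the 20S core, 0.40 for the 19S cap and 1.58 for the activators, and opposite-sign values were Psma4 0.25, Psma5 0.40, Psma7 0.37, Psmb7 0.30, Psmc1 0.12, Psmc6 0.31, Psmd1 0.45, Psmd3 0.43, Psmd4 0.41, Psmd7 0.24, Psmd12 0.16, Psmd13 0.52, Psmd14 0.38 and Psmf1 0.48 for M1 in the knockout line. Members called were 4 higher, and median log2 changes were -0.11 for the 20S core, -0.12 for the 19S cap and 0.032 for the activators for knockout against control in M1. Members called were 5 higher and 3 lower, and median log2 changes were 0.038 for the 19S cap and 0.055 for the activators for knockout against control in M2. Members called were 2 higher and 12 lower, and median log2 changes were -0.059 for the 20S core, -0.073 for the 19S cap and 0.014 for the activators for the M1 response between lines. Members called were 6 higher, and median log2 changes were 0.087 for the 19S cap and -0.015 for the activators for the M2 response between lines. Median log2 changes were 0.070 for the 20S core, 0.13 for the 19S cap and -0.010 for the activators for M2 in the knockout line.

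Under no variance trend the following values moved. Members called were 4 lower for knockout against control in M0. Members called were 0 higher for the M1 response between lines.

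Under only the groups compared in the fit the following values moved. Members called were 2 higher for knockout against control in M1. Members called were 1 higher for knockout against control in M2.

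Over 21 pairs of same-numbered libraries, the correlation of their deviations from the group mean ran from -0.138 to 0.122. In 11 of the 21 a library correlated best with its own number. With 3 libraries per group, these values cannot tell whether the numbers pair the samples. With the replicate block, members called were 13 in place of 14 higher for M1 in the knockout line, 9 in place of 10 lower for knockout against control in M0, 32 in place of 33 lower for knockout against control in M1, 3 in place of 2 higher for the M2 response between lines, and equal to the fit without it for the other counts.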

Other observations

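The balance between paired subunits is described here without a test. The ratio of Psmb9 to Psmb6, which take the same place in the core, was 0.189 ± 0.0082 in M0 and 0.649 ± 0.018 in M1 control cells, and 0.304 ± 0.026 and 0.784 ± 0.018 in the knockout line. The ratio of Psmb10 to Psmb7 was 0.149 ± 0.0037, 0.613 ± 0.01, 0.175 ± 0.006 and 0.666 ± 0.015 in the same groups. The ratio of the highest to the lowest core gene, with Psma8 and Psmb11 left out, was 2.22 in M0 and 2.81 in M1 control cells and 2.25 and 3.41 in the knockout line. The ratio of Psme1 to Psme2 was 0.76 ± 0.034 in M0 and 0.828 ± 0.015 in M1 control cells, and 0.882 ± 0.024 and 0.749 ± 0.012 in the knockout line.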
